A study of Mus musculus with 16 samples.

Results

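Toll-like receptors (TLRs) other than the LPS receptor TLR4 were followed in bone marrow derived macrophages (BMDMs). The members were taken by gene symbol from the deposited count matrix, which gave 9 genes (Tlr1, Tlr2, Tlr3, Tlr5, Tlr6, Tlr7, Tlr8, Tlr9 and Tlr13) of 22287 in all. Marrow of C57BL/6J mice, aged 8 weeks per the labels, was grown over 7 days in either GM-CSF (GM, 20 ng/ml) or M-CSF (M, 50 ng/ml). Cells grew on dishes treated for cell adhesion (TC) or on untreated ones (noTC), and then received vehicle (steady state) or LPS (100 ng/ml, 3 h). This gave 8 groups, named GM-TC, GM-noTC, GM-TC-LPS, GM-noTC-LPS, M-TC, M-noTC, M-TC-LPS and M-noTC-LPS, each with 2 biological replicates, and no source states which of them share an animal. Cultures are listed throughout in the order GM on TC, GM on noTC, M on TC, M on noTC. The study's methods give a different seeding density for each growth factor, so density and growth factor cannot be told apart.

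TLRs are receptors of innate immunity that bind conserved microbial molecules through leucine-rich repeats and signal through a cytoplasmic TIR domain. TLR2 pairs at the cell surface with TLR1 for triacylated or with TLR6 for diacylated lipopeptides, and TLR5 binds bacterial flagellin there. TLR3 (double-stranded RNA), TLR7 and TLR8 (single-stranded RNA and its breakdown products), TLR9 (CpG DNA) and TLR13 (a motif of bacterial ribosomal RNA) work inside endosomes after UNC93B1 has carried them from the endoplasmic reticulum. All of them except TLR3 signal through the adaptor MyD88, while TLR3 uses TRIF.

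Tlr1 and Tlr6 lie side by side on the minus strand of chromosome 5 and carry stretches of near-identical coding sequence, which bears on every value of this pair. In GRCm38 with GENCODE M21, Tlr1 spans chr5:64924679-64933563 and Tlr6 spans chr5:64952031-64960097. Their coding sequences have 2385 and 2418 bases and share a stretch of 938 bases with 18 differences (98.08% identical). The longest identical run within it has 229 bases. Of the windows of 50 bases in the coding sequence, 19.43% of those of Tlr1 also occur in Tlr6, and no other pair among the 9 members shares such a window. The 120 bases where the shared stretch begins are given for both genes, with differing bases in capitals. They cover coding bases 1243 to 1362 of Tlr1 and 1282 to 1401 of Tlr6, with 20 differences in the first 40 bases and 5 in the following 80.
Tlr1: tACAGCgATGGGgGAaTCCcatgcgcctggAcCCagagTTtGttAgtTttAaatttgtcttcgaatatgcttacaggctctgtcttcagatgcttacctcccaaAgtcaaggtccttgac
Tlr6: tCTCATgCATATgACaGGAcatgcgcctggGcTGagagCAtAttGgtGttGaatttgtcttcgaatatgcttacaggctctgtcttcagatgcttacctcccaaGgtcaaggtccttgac

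The deposited values show that reads were divided between the pair. The count of Tlr1 was not a whole number in any of the 16 libraries, while the sum of Tlr1 and Tlr6 was whole, within 0.015 counts, in 16 of 16. Tlr1 took 41.3% and 43.7% of that sum for GM-TC, 49.4% and 49.4% for GM-noTC, then 62.0% and 61.7% for GM-TC-LPS, and 66.0% and 64.6% for GM-noTC-LPS. With M-CSF it took 64.3% and 67.0% for M-TC, 67.9% and 68.7% for M-noTC, then 75.1% and 74.5% for M-TC-LPS, and 74.9% and 72.9% for M-noTC-LPS. The share was lowest in the GM-CSF libraries at steady state and highest upon LPS challenge in M-CSF libraries. How far this share depends on the division of shared reads cannot be read from the counts. Called results of the pair are therefore also given for the sum of the 2 genes.

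**Figure D1:**
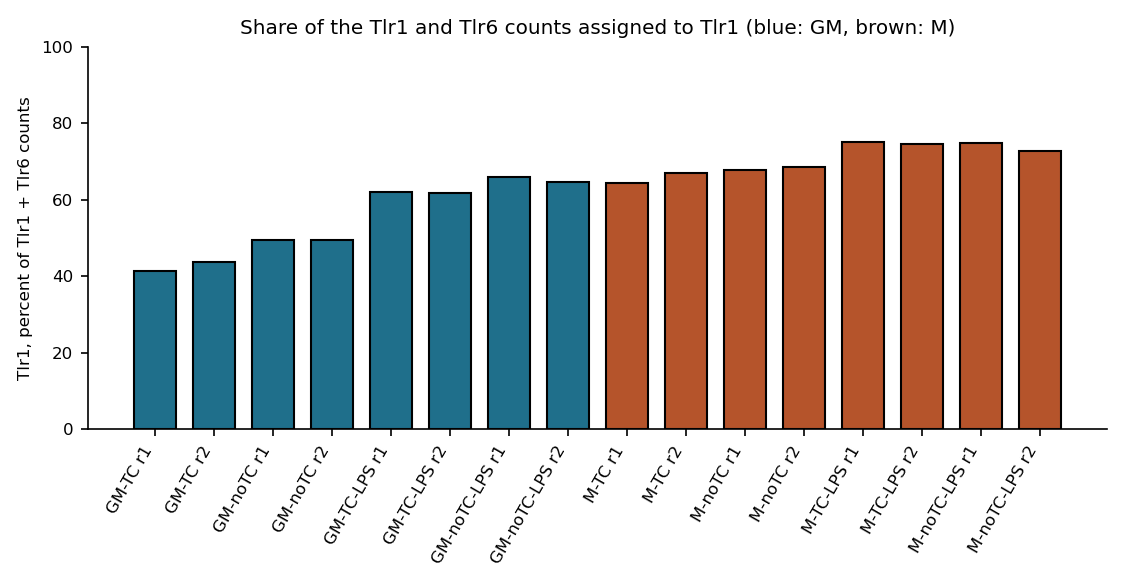
Bars give, for each of the 16 libraries (r1 and r2 are replicates), the percent of the summed Tlr1 and Tlr6 counts that was assigned to Tlr1, on an axis from 0 to 100%. The bars run from 41.3% in a GM-TC library to 75.1% in an M-TC-LPS library.

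Promoter sequences from RefSeq (GRCm38.p6), which run from 250 bases before to 50 after an annotated start, were found for 8 members, with 10 windows between them, and none for Tlr7. The consensus of NF-kappaB, searched by name on both strands, was found in windows of Tlr2 and Tlr3 and in 8.46% of all 32851 promoters. The windows of these genes are printed in the direction of transcription because Tlr3 and Tlr2 had the largest rises upon LPS challenge in 3 of the 4 cultures, and the capitals mark the matches. The Tlr2 window, chr3:83841559-83841858 on the minus strand, holds 3 matches at -173, -172 (these overlap) and -8 from the start. The Tlr3 window, chr8:45410331-45410630 on the minus strand, holds 1 match at -211.
Tlr2: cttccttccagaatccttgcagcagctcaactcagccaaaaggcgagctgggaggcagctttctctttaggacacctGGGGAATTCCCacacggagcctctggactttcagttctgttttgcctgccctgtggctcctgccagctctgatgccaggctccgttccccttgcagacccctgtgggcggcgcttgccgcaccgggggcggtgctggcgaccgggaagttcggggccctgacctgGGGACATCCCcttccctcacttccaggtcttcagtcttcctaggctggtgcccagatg
Tlr3: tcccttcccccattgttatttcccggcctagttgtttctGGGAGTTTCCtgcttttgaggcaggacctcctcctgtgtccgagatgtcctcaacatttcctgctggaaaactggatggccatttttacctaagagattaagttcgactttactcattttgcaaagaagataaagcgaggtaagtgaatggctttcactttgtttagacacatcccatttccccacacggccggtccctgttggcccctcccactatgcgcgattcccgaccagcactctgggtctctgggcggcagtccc

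The core of the interferon response element (GAAANNGAA, both strands) occurred 2 times, in overlapping positions, in 1 of the windows of Tlr6 and 1 time in that of Tlr8, and in 8.56% of all promoters. The GAS letters TTCNNNGAA were found in windows of Tlr1, Tlr6 and Tlr8 and in 8.3% of all promoters. The PU.1 core GAGGAA was found in windows of Tlr1, Tlr8, Tlr9 and Tlr13 and in 28.28% of all promoters. These letter matches are descriptions and no binding was measured.

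Each library held between 17527806 and 31458368 counts, and 3 counts, the limit that a count of 0 allows, correspond to 0.0954 to 0.171 CPM (counts scaled to a common library total). All 9 members passed the filter on low counts with 12514 genes in all, though Tlr5 would not have passed without the M-CSF libraries at steady state. Its values are therefore given as a description, and counts of called members are over the other 8. The CPM take in the TMM factors of edgeR (0.778 to 1.39). The 7 macrophage markers summed to 19984 to 46561 CPM per library, in keeping with the labelled cell type. Lyz2 made up most of that sum at 14945 to 41576 CPM. Csf1r had 728 to 2894, Itgam 727 to 2622, Cd68 714 to 1337 and Adgre1 214 to 1430 CPM. Fcgr1 had 43.0 to 384 and Mertk 19.0 to 203 CPM. Of other cells that use these receptors, the 6 B cell markers summed to at most 1.33 CPM. Among plasmacytoid dendritic cell markers, Siglech, Ly6d and Klk1 stayed at or below 0.239 CPM, while Ccr9 reached 2.31 and Cox6a2 1.99 CPM. Tcf4, which macrophages also express, made up most of that list at 22.6 to 355 CPM. Among conventional dendritic cell markers, Itgax reached 1014 CPM and lay far higher in GM-CSF than in M-CSF libraries. Clec9a reached 31.8, Zbtb46 8.17, Cd209a 5.54, Xcr1 3.13 and Flt3 0.511 CPM. Mmp8 made up most of the neutrophil list, which summed to 662 to 959 CPM in GM-CSF and 11.2 to 16.8 CPM in M-CSF libraries. In that list Ngp reached 17.1, Ltf 5.54, Camp 0.948, Cxcr2 0.856 and Ly6g 0.259 CPM. Sums were at most 6.48 CPM for mast cell and basophil, 9.55 CPM for T and NK cell and 14.9 CPM for fibroblast markers. The 6 cardiac muscle markers summed to 19.6 to 54.1 CPM in steady state libraries of TC dishes and to at most 0.291 CPM in all others. Since these are bulk samples, fewer cells of a type and less RNA per cell cannot be told apart, and the part of these cell lists in the results was not tested.

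At steady state the receptors fell into an abundant and a scarce set. Levels between genes were compared as CPM per kb of annotated exon. This length takes in every exon base of any GENCODE M21 transcript of the gene. It may exceed the length of the transcripts in use, so close ranks and shares between genes are approximate. In GM-TC, Tlr13 led at 76.6 ± 1.80 (SD, n = 2), followed by Tlr2 at 67.1 ± 0.954, Tlr8 at 52.2 ± 7.89 and Tlr7 at 51.7 ± 3.49 CPM per kb. The other members of GM-TC lay at 6.54 CPM per kb (Tlr6) or below. In M-TC, Tlr7 led at 118 ± 1.51, followed by Tlr2 at 71.9 ± 0.281, Tlr13 at 68.7 ± 0.782 and Tlr8 at 59.3 ± 0.998 CPM per kb. Tlr9 stood at 20.3 ± 0.394 CPM per kb in M-TC against 3.94 ± 0.746 in GM-TC. Tlr3 was among the scarcest at steady state, between 2.20 and 6.69 CPM per kb over the 4 groups, and Tlr5 never exceeded 0.359 CPM per kb. On noTC dishes Tlr13 again led in GM-CSF cells at 84.2 ± 0.293 and Tlr7 in M-CSF cells at 88.7 ± 1.65 CPM per kb.

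Upon LPS challenge Tlr2 became the most abundant receptor per kb in all 4 cultures, at 356 ± 2.80 in GM-TC-LPS, 355 ± 11.1 in GM-noTC-LPS, 274 ± 2.66 in M-TC-LPS and 248 ± 1.59 CPM per kb in M-noTC-LPS. Tlr7 stood next in each of them, at 124 to 144 CPM per kb. The third place went to Tlr13 in GM-CSF cells (73.1 and 83.6 CPM per kb) and to Tlr3 in M-CSF cells (84.2 and 92.1 CPM per kb). The surface receptors Tlr1, Tlr2, Tlr5 and Tlr6 together held 29.8% ± 1.89 of the summed level per kb in GM-TC and 56.4% ± 0.654 in GM-TC-LPS. That share was 25.4% ± 0.262 in M-TC and 50.8% ± 2.02 in M-TC-LPS. On noTC dishes the surface share was 26.3% ± 0.471 and 54.1% ± 0.524 in GM-CSF cells and 19.7% ± 0.157 and 48.0% ± 1.0075 in M-CSF cells, without and with LPS.

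**Figure D2:**
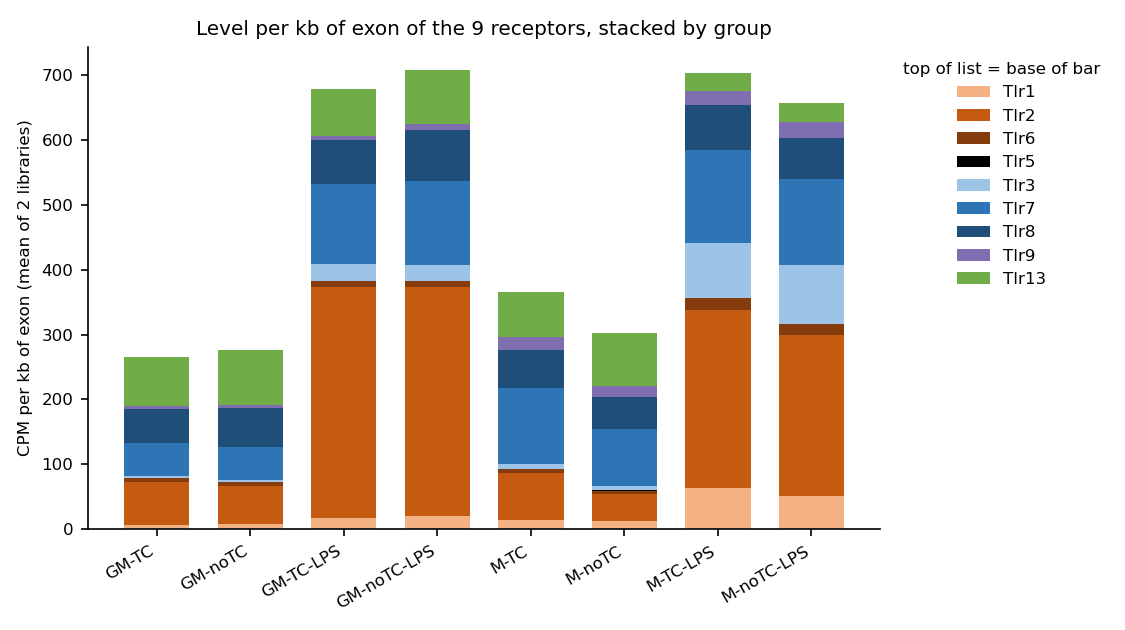
Stacked bars give the mean level of each receptor (2 libraries) in CPM per kb of exon for the 8 groups, with surface receptors in orange, brown and black at the base and endosomal receptors in blue, purple and green above. Tlr2 takes 19.7% of the M-TC bar and 52.4% of the GM-TC-LPS bar, and Tlr5 is too low to be seen in most bars.

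Which receptors respond when the cell meets a ligand of another TLR was asked by comparing LPS with vehicle in each culture. Tlr3, Tlr2, Tlr1, Tlr6, Tlr7 and Tlr8 rose in all 4 cultures by edgeR's quasi-likelihood test (BH-adjusted p under 0.05), with Tlr3 and Tlr2 among the largest changes. Tlr9 rose in 3 of them, and Tlr13 fell in M-CSF cells. In GM-TC 7 of 8 rose, where 32.8% of all genes tested rose, and 0 fell, where 34.2% fell. In GM-noTC the counts were 7 and 0, beside 33.6% and 34% of all genes. DESeq2 also called 7 higher and 0 lower in each of these, and at an unadjusted p under 0.05 edgeR had 0 lower too. In M-TC 6 rose and 1 fell, beside 37.6% and 36.4%, and in M-noTC 7 rose and 1 fell, beside 36.4% and 35.9%. The median log2 fold change over these 8 members was 0.92, 1.12, 0.92 and 1.12 in the 4 cultures (0.58, 0.90, 0.29 and 0.58 with Tlr5 included), with that of all genes tested between -0.05 and -0.01.

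The scaling of the libraries moves these directions for the weaker members. With library size only, the median of all genes shifted to -0.53, -0.54, -0.83 and -0.73 on the log2 scale in the 4 cultures. Tlr8 then had negative values in all 4 cultures, Tlr7 in M-TC and M-noTC, Tlr9 in GM-TC, M-TC and M-noTC, and Tlr6 in GM-noTC (-0.0015). In M-TC and M-noTC the falls of Tlr7, Tlr8 and Tlr9 were called under that scaling (edgeR, BH-adjusted p at most 0.034). The negative values of Tlr6, Tlr8 and Tlr9 in GM-CSF cells were not called. Tlr6 in GM-TC lost its call (0.10, BH-adjusted p = 0.25, edgeR). Relative to that median, each of the called changes kept its sign (Tlr8 0.42, 0.43, 0.22 and 0.34, and Tlr7 0.30 and 0.58 in M-TC and M-noTC). Taking off the median of all genes comes close to TMM scaling, so these signs do not decide between the scalings. Tlr1, Tlr2 and Tlr3 rose in all 4 cultures and Tlr13 fell in M-CSF cells under both scalings.

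Tlr3, the sensor of double-stranded RNA (chr8:45395665-45411080), had the largest rise among the members in each of the 4 cultures. It had 12.2 and 10.8 CPM in GM-TC against 133 and 133 CPM in GM-TC-LPS, with 14.2 and 13.4 in GM-noTC against 117 and 136 CPM in GM-noTC-LPS. In M-CSF cells it went from 33.6 and 36.0 in M-TC to 407 and 470.2 CPM in M-TC-LPS, and likewise from 32.4 and 37.0 in M-noTC to 456 and 503 CPM in M-noTC-LPS. All LPS libraries lay above all steady state libraries, and the M-CSF libraries above the GM-CSF libraries of the same treatment. The log2 fold changes were 3.54 ± 0.10, 3.20 ± 0.10, 3.65 ± 0.09 and 3.78 ± 0.09 in the 4 cultures (SE, n = 2 per group), with BH-adjusted p between 2.5e-20 and 5.6e-18 (edgeR). The annotated antisense gene Gm45542 shares 381 exon bases with Tlr3, and since the library kit does not mark strand, its reads could not be told apart.

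Tlr2 (chr3:83836272-83841767), the common partner in the lipopeptide receptors, came next in 3 cultures and after Tlr1 in M-TC. It had 200.35 and 204 CPM in GM-TC against 1067 and 1079 in GM-TC-LPS, with 172 and 183.1 in GM-noTC against 1045 and 1093 CPM in GM-noTC-LPS. The M-CSF libraries had 217 and 216 CPM in M-TC against 831 and 820.1 in M-TC-LPS, with 126.06 and 126.15 in M-noTC against 752 and 745 CPM in M-noTC-LPS. The groups of each comparison did not overlap, and the 4 GM-CSF libraries upon LPS challenge lay above the 4 M-CSF ones. Tlr2 rose 5.30-fold in GM-TC, 6.01-fold in GM-noTC, 3.81-fold in M-TC and 5.94-fold in M-noTC, with log2 fold changes of 2.41, 2.59, 1.93 and 2.57 (SE 0.05 each) and BH-adjusted p of 8.0e-20 or below (edgeR).

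Tlr1, which pairs with TLR2, had 17.3 and 18.6 CPM in GM-TC, 56.5 and 61.0 in GM-TC-LPS, 23.7 and 23.2 in GM-noTC, and 63.9 and 64.6 CPM in GM-noTC-LPS. In M-CSF cells it had 45.6 and 48.5 CPM in M-TC, 214 and 214 in M-TC-LPS, 38.3 and 43.6 in M-noTC, and 169 and 173 CPM in M-noTC-LPS. Every LPS library lay above every steady state library for Tlr1. Its log2 fold changes were 1.71 ± 0.08, 1.45 ± 0.07, 2.18 ± 0.06 and 2.06 ± 0.06 in the 4 cultures (SE, edgeR, BH-adjusted p at most 3.7e-14). Tlr6, the other partner of TLR2, had 24.6 and 24.1 CPM in GM-TC, 34.7 and 37.9 in GM-TC-LPS, 24.3 and 23.8 in GM-noTC, and 32.9 and 35.4 CPM in GM-noTC-LPS. It had 25.3 and 23.9 CPM in M-TC, 70.8 and 73.1 in M-TC-LPS, 18.2 and 19.9 in M-noTC, and 56.5 and 64.4 CPM in M-noTC-LPS. Steady state and LPS libraries did not overlap for Tlr6, and M-CSF libraries stood highest upon LPS challenge. Its changes were 0.58 ± 0.08, 0.51 ± 0.08, 1.55 ± 0.07 and 1.66 ± 0.07 on the log2 scale in the 4 cultures (BH-adjusted p at most 7.2e-06). Summed as 1 feature, the pair rose by 1.17, 1.05, 1.996 and 1.94 on the log2 scale in the same order, with BH-adjusted p of 1.6e-12 or below (edgeR).

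The endosomal receptors Tlr7, Tlr8 and Tlr9 changed less than Tlr1, Tlr2 and Tlr3 in each of the 4 cultures. Tlr7 nevertheless rose more than Tlr6 in GM-CSF cells. Tlr7 (chrX:167304929-167330558) had 221 and 201 CPM in GM-TC against 490.4 and 525 in GM-TC-LPS, with 207 and 215 in GM-noTC against 505 and 554 CPM in GM-noTC-LPS. In M-CSF cells, where it began higher, it had 484 and 475 CPM in M-TC against 551 and 625 in M-TC-LPS, with 357 and 367 in M-noTC against 522 and 563 CPM in M-noTC-LPS. Its libraries did not overlap between treatments, while upon LPS challenge each of the 4 groups overlapped its neighbour in the order of means. Tlr7 rose by 1.27 ± 0.07 in GM-TC and 1.33 ± 0.07 in GM-noTC but by 0.29 ± 0.06 in M-TC and 0.58 ± 0.06 in M-noTC on the log2 scale (SE, edgeR, BH-adjusted p at most 3.0e-04). Both values of M-CSF cells were negative with library size only, at -0.53 and -0.14.

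Tlr8 (chrX:167242696-167264329), the neighbour of Tlr7 on the X chromosome, varied least of all members, by 1.60-fold between its highest and lowest group means. It had 207 and 167 CPM in GM-TC, 238 and 247 in GM-TC-LPS, 215 and 216 in GM-noTC, and 273 and 293 CPM in GM-noTC-LPS. The M-CSF libraries had 215 and 210.1 CPM in M-TC, 242 and 253 in M-TC-LPS, 176 and 178 in M-noTC, and 222 and 225 CPM in M-noTC-LPS. No comparison of treatments overlapped, while groups of different cultures did. Tlr8 rose by 0.38 ± 0.07, 0.40 ± 0.07, 0.22 ± 0.07 and 0.34 ± 0.07 on the log2 scale in the 4 cultures (edgeR, BH-adjusted p between 2.7e-05 and 0.0072), and all 4 signs turned with library size only. In M-TC the BH-adjusted p of Tlr8 was 0.053 without M-TC replicate 2 and 0.062 without M-TC-LPS replicate 2.

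Tlr9, the receptor of CpG DNA (chr9:106222598-106226883), had 15.6 and 11.9 CPM in GM-TC, 17.94 and 18.02 in GM-TC-LPS, 16.3 and 15.8 in GM-noTC, and 30.2 and 29.9 CPM in GM-noTC-LPS. It had 71.7 and 69.8 CPM in M-TC, 76.6 and 78.9 in M-TC-LPS, 55.8 and 62.2 in M-noTC, and 82.5 and 90.0 CPM in M-noTC-LPS. The 8 M-CSF libraries lay above the 8 GM-CSF libraries. Upon LPS challenge Tlr9 rose by 0.40 ± 0.10 in GM-TC (BH-adjusted p = 0.0018), 0.90 ± 0.09 in GM-noTC (1.6e-08) and 0.54 ± 0.07 in M-noTC (9.0e-07) on the log2 scale (edgeR). In M-TC its log2 fold change was 0.14 ± 0.07 with a BH-adjusted p of 0.11 (edgeR). Its call in GM-TC was lost without GM-TC replicate 2 (BH-adjusted p = 0.099), and its sign turned with library size only in GM-TC (-0.08) and M-noTC (-0.18).

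Tlr13 (chrX:106143204-106160493), the receptor of bacterial ribosomal RNA, fell in M-CSF cells. It had 298 and 293 CPM in M-TC against 108 and 119 in M-TC-LPS, with 349 and 347 in M-noTC against 133 and 128 CPM in M-noTC-LPS. The GM-CSF libraries had 335 and 324 CPM in GM-TC, 304 and 325 in GM-TC-LPS, 361 and 363 in GM-noTC, and 354 and 366 CPM in GM-noTC-LPS. Thus the 4 M-CSF libraries with LPS stood apart from the other 12, whose values lay between 293 and 366 CPM. Tlr13 fell 2.60-fold in M-TC and 2.66-fold in M-noTC, with log2 fold changes of -1.38 ± 0.06 and -1.41 ± 0.05 and BH-adjusted p of 5.2e-16 and 2.8e-16 (edgeR). In GM-TC and GM-noTC its log2 fold changes were -0.07 ± 0.05 and -0.01 ± 0.05 (BH-adjusted p = 0.26 and 0.89), with overlapping libraries. With library size only they were -0.55 and -0.52, beside the shifted medians of -0.53 and -0.54.

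Tlr5, the flagellin receptor (chr1:182954788-182976044), was scarce throughout. Its M-CSF libraries held 22 and 40 counts in M-TC but 3 and 2 in M-TC-LPS, likewise 53 and 71 in M-noTC but 5 and 6 in M-noTC-LPS. The GM-CSF libraries held 2 and 6 counts in GM-TC, 4 and 0 in GM-TC-LPS, 9 and 11 in GM-noTC, and 6 and 1 in GM-noTC-LPS. Only the M-CSF cells at steady state exceeded 0.5 CPM, with 0.878 and 1.497 CPM in M-TC and 1.79 and 1.65 CPM in M-noTC. The ratio of steady state to LPS was 8.98 (95% exact counting interval 3.65 to 28.6) in M-TC and 6.13 (3.31 to 12.6) in M-noTC. In GM-TC and GM-noTC the same ratio was 1.83 (0.491 to 8.31) and 2.38 (0.968 to 6.67), so a change was not detectable at this depth. These intervals cover counting error only, and no test is given for Tlr5 because the M-CSF libraries at steady state brought it past the filter.

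**Figure D3:**
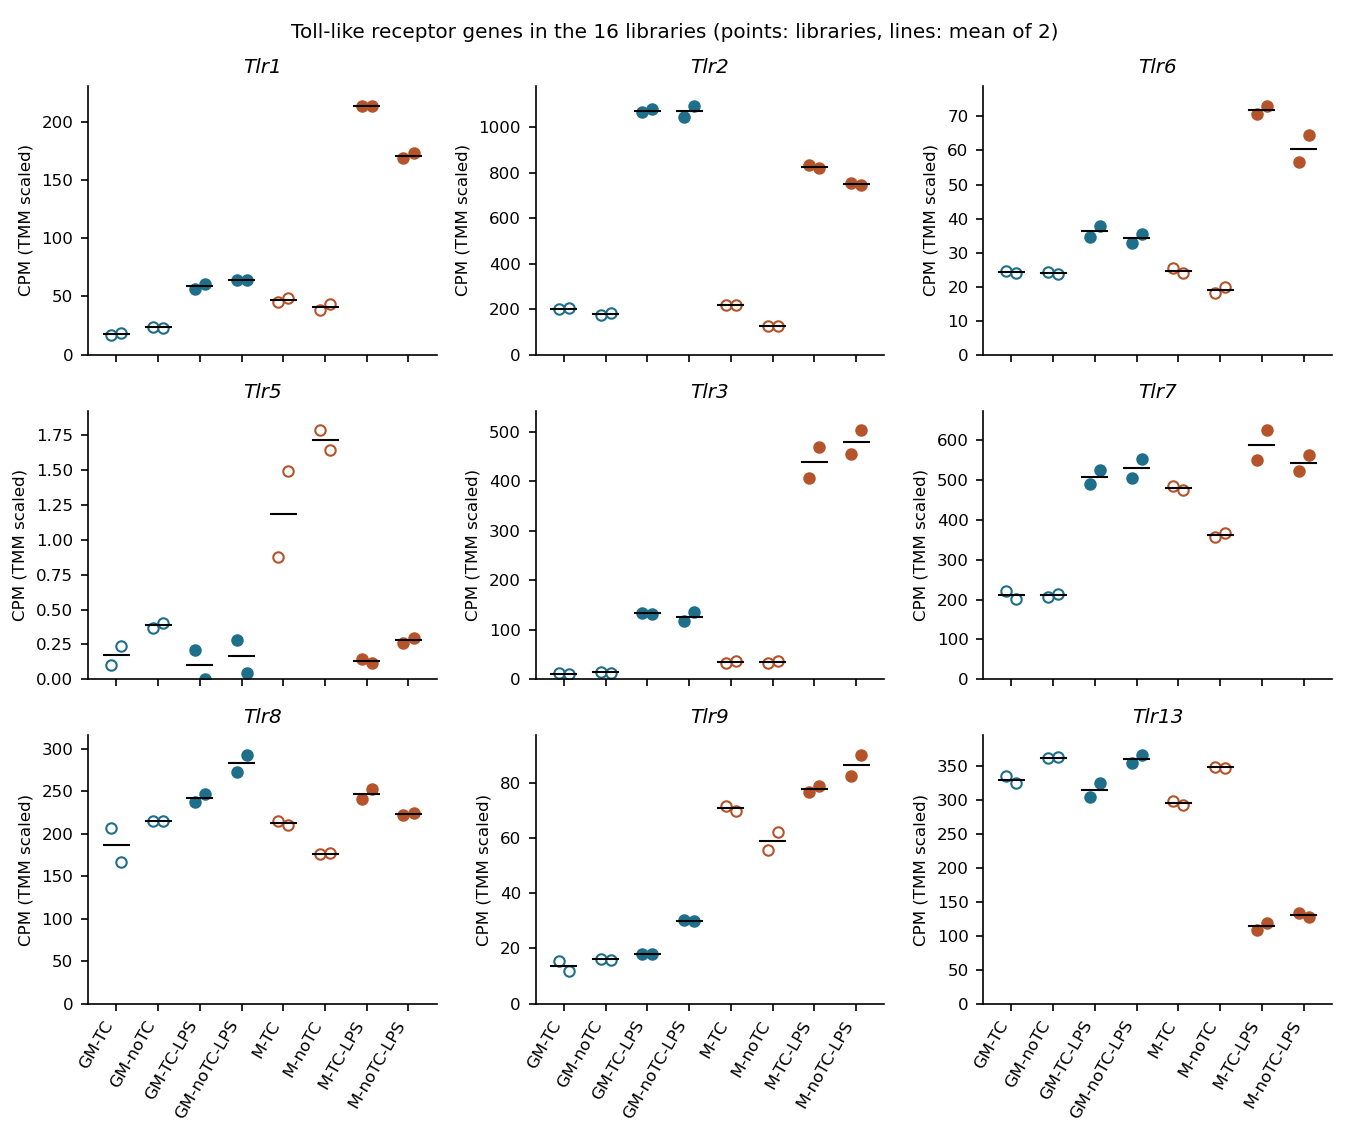
Each panel shows 1 receptor, with CPM (TMM scaled) on a linear axis from 0 and the 8 groups along the other axis. Open points are steady state libraries, filled points are LPS libraries, blue is GM-CSF and brown is M-CSF, and the line is the mean of 2 libraries. Tlr3 and Tlr1 peak in M-CSF cells with LPS, Tlr2 in GM-CSF cells with LPS, and Tlr13 drops to 108 to 133 CPM only in M-CSF cells with LPS.

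**Figure D4:**
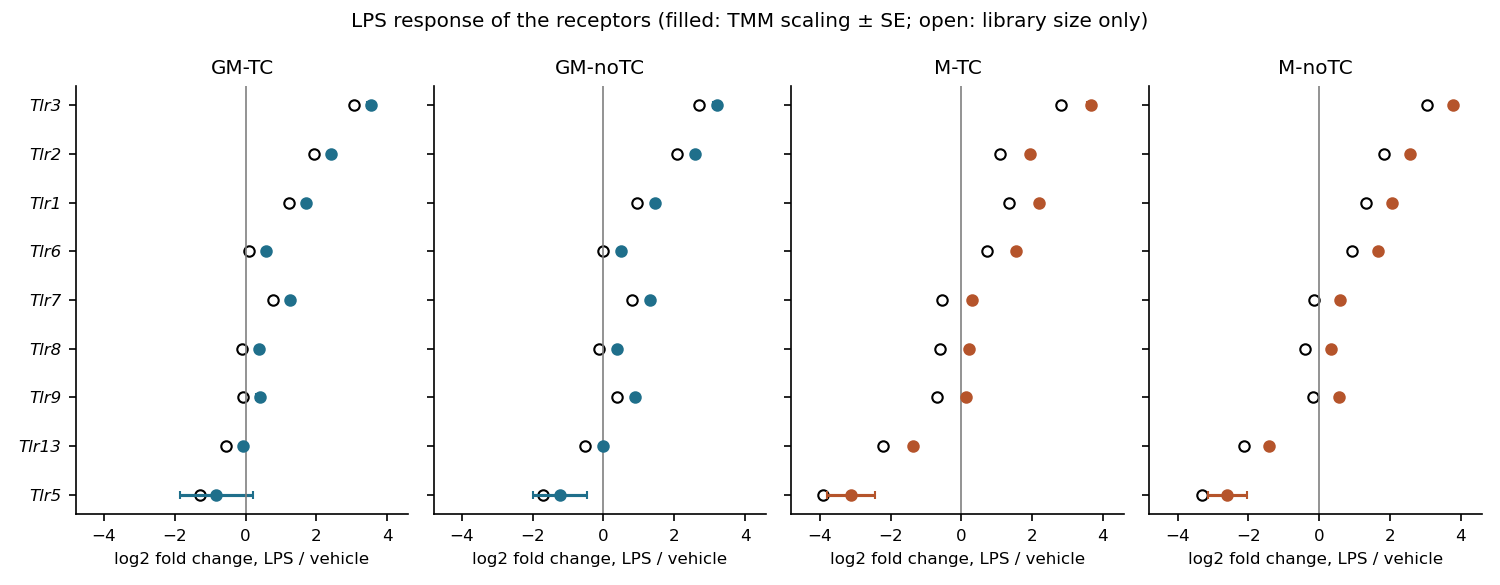
Log2 fold change of LPS against vehicle for each receptor in the 4 cultures, with TMM scaling as filled points with SE (SE bars smaller than the point are hidden) and with library size only as open points. Tlr3 stands furthest to the right under both scalings, and the open points of Tlr8 lie left of 0 in all 4 cultures.

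GM-CSF and M-CSF cells differed in the levels of most receptors before any LPS, as they did in those of most genes tested. On TC dishes at steady state, Tlr1, Tlr3, Tlr7, Tlr8 and Tlr9 were lower and Tlr13 was higher in GM than in M (edgeR, BH-adjusted p under 0.05). This made 1 of 8 higher and 5 lower, beside 32.6% and 28.9% of all genes tested. On noTC dishes Tlr1, Tlr3, Tlr7 and Tlr9 were lower and Tlr2, Tlr6 and Tlr8 higher in GM, which made 3 higher and 4 lower beside 31.4% and 30.7%. The largest called differences were those of Tlr9, at 13.7 ± 2.60 in GM-TC against 70.8 ± 1.37 CPM in M-TC (5.21-fold, BH-adjusted p = 5.2e-16) and 16.1 ± 0.401 in GM-noTC against 59.0 ± 4.51 CPM in M-noTC (3.68-fold, BH-adjusted p = 1.3e-14). Tlr3 was 3.05-fold and 2.53-fold lower, Tlr1 2.61-fold and 1.75-fold lower, and Tlr7 2.27-fold and 1.72-fold lower in GM than in M on TC and noTC, respectively (edgeR, BH-adjusted p at most 1.3e-09). Summed, Tlr1 and Tlr6 had a smaller log2 difference than Tlr1 alone on TC, at -0.76 ± 0.06 (BH-adjusted p = 9.3e-10, edgeR). For Tlr5 the ratio of M to GM was 6.68 (95% exact counting interval 3.19 to 16.2) on TC and 4.40 (2.73 to 7.45) on noTC. These intervals leave out the spread between replicates. Tlr5 passed the filter only through the M-CSF libraries compared here, so the ratios are a description and no test.

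The smaller differences at steady state depended on the dish or the scaling. Tlr2 was 1.41-fold higher in GM on noTC (BH-adjusted p = 5.5e-09), whereas on TC its log2 difference was -0.10 ± 0.05 (BH-adjusted p = 0.073, edgeR). Tlr8 had a log2 difference of -0.19 ± 0.07 on TC (BH-adjusted p = 0.023) and 0.28 ± 0.07 on noTC (BH-adjusted p = 0.0010). The TC value of Tlr8 lost its call without GM-TC replicate 2 (BH-adjusted p = 0.57) and without M-TC replicate 1 (0.086). Tlr13 on TC had a log2 difference of 0.16 ± 0.05 (BH-adjusted p = 0.012), which was not called by DESeq2 (adjusted p = 0.073) or without GM-TC replicate 1 (0.069), M-TC replicate 1 (0.068) or M-TC replicate 2 (0.11). With library size only, where the median of all genes moved to -0.29 in both comparisons, Tlr13 on TC stood at -0.15 and Tlr8 on noTC at -0.01. Tlr6 on noTC was 1.26-fold higher in GM (BH-adjusted p = 0.0011), but the sum of Tlr1 and Tlr6 was lower in GM there (log2 difference -0.34 ± 0.06, BH-adjusted p = 6.8e-05, edgeR).

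Upon LPS challenge the levels of most receptors still differed between growth factors, as did those of most genes tested. On TC dishes Tlr1, Tlr3, Tlr6, Tlr7 and Tlr9 were lower and Tlr2 and Tlr13 higher in GM, or 2 higher and 5 lower beside 33.9% and 32.9% of all genes. On noTC dishes Tlr1, Tlr3, Tlr6 and Tlr9 were lower and Tlr2, Tlr8 and Tlr13 higher, or 3 and 4 beside 33.5% and 32.6%. Tlr1 was 3.64-fold and 2.66-fold lower, Tlr3 3.30-fold and 3.78-fold lower, and Tlr9 4.32-fold and 2.87-fold lower in GM on TC and noTC (edgeR, BH-adjusted p at most 2.7e-13). Tlr13 was 2.77-fold and 2.76-fold higher in GM (BH-adjusted p = 4.7e-16 and 4.1e-16), and Tlr2 was 1.30-fold and 1.43-fold higher (BH-adjusted p = 2.0e-07 and 1.5e-09, edgeR). Tlr6 was 1.98-fold and 1.77-fold lower (BH-adjusted p = 8.9e-11 and 2.15e-09), and Tlr8 was 1.27-fold higher on noTC (BH-adjusted p = 1.6e-04) with a log2 difference of -0.03 ± 0.07 on TC (BH-adjusted p = 0.74). Summed, Tlr1 and Tlr6 had log2 differences of -1.59 ± 0.06 on TC and -1.24 ± 0.06 on noTC (BH-adjusted p = 5.4e-16 and 4.2e-14, edgeR). Tlr7, which differed 2.27-fold on TC at steady state, differed 1.16-fold there upon LPS challenge (BH-adjusted p = 0.0062), a call lost without GM-TC-LPS replicate 1 (0.086) or M-TC-LPS replicate 2 (0.16). The marker lists that move with the growth factor (Itgax and Mmp8, above) cannot be told apart from it in these libraries.

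Whether the growth factor changed the LPS response was tested with the interaction term of the same fit, as the log2 response in GM minus that in M. On TC 5 of 8 members passed, beside 41.1% of all genes, and on noTC 6 passed, beside 36.2%. Tlr13 differed most, by 1.31 ± 0.08 on TC and 1.40 ± 0.07 on noTC (BH-adjusted p = 5.5e-12 and 2.0e-12, edgeR). Tlr7 responded more in GM, by 0.97 ± 0.09 and 0.75 ± 0.09 (BH-adjusted p = 1.4e-08 and 7.8e-07). Tlr6 responded less in GM, by -0.97 ± 0.11 and -1.15 ± 0.11, and so did Tlr1, by -0.48 ± 0.10 and -0.61 ± 0.10 (BH-adjusted p at most 5.0e-04), and the sum of the pair, by -0.83 ± 0.09 and -0.90 ± 0.09. Tlr2 responded more in GM on TC (0.48 ± 0.07, BH-adjusted p = 3.6e-06), with 0.02 ± 0.07 on noTC (BH-adjusted p = 0.87), and Tlr3 less in GM on noTC (-0.58 ± 0.13, BH-adjusted p = 0.0010), with -0.11 ± 0.14 on TC (0.55). The call of Tlr9 on noTC (0.36 ± 0.12, BH-adjusted p = 0.021) was lost without GM-noTC replicate 2 (0.081), GM-noTC-LPS replicate 1 (0.056), M-noTC replicate 2 (0.11) or M-noTC-LPS replicate 1 (0.088). With library size only, the median interaction of all genes moved to 0.30 on TC and 0.19 on noTC, and Tlr1 on TC was no longer called (-0.13, BH-adjusted p = 0.28). These differences share their libraries with the comparisons above and are not independent of them.

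The called differences between dishes were at most 1.72-fold. M-CSF cells held 7 of them at steady state and 4 with LPS, and GM-CSF cells held 2 and 2. Of all genes tested, 16.1% were higher and 11.1% lower on noTC in M-CSF cells at steady state, and 10.4% and 12.9% with LPS. In GM-CSF cells these shares were 4.69% and 2.85% at steady state and 2.08% and 0.727% with LPS. Fewer members were thus called in the cells where fewer of all genes were called. In M-CSF cells at steady state, Tlr1, Tlr2, Tlr6, Tlr7, Tlr8 and Tlr9 were lower and Tlr13 higher on noTC than on TC (edgeR, BH-adjusted p under 0.05), or 1 of 8 higher and 6 lower, beside the 16.1% and 11.1% of all genes tested. Tlr2 differed most, with 126.1 ± 0.0697 CPM in M-noTC against 217 ± 0.846 in M-TC, a 1.72-fold lower level (log2 -0.78 ± 0.05, BH-adjusted p = 8.6e-11). Tlr7 was 1.32-fold lower, at 362 ± 6.74 against 480 ± 6.15 CPM (BH-adjusted p = 4.5e-05), and Tlr6 1.29-fold lower, at 19.0 ± 1.23 against 24.6 ± 1.03 CPM (BH-adjusted p = 0.0014). Tlr8 and Tlr9 were each 1.20-fold lower (BH-adjusted p = 0.0054 and 0.012) and Tlr13 was 1.18-fold higher, at 348 ± 1.51 against 295.5 ± 3.37 CPM (BH-adjusted p = 0.0015). Tlr1 was 1.14-fold lower (BH-adjusted p = 0.033), a call lost without M-TC replicate 2 (0.24) or M-noTC replicate 1 (0.37). Summed, Tlr1 and Tlr6 had a log2 difference of -0.25 ± 0.06 (BH-adjusted p = 0.0036, edgeR). The call of Tlr9 was lost without M-TC replicate 1 (0.081) or M-noTC replicate 1 (0.17). Tlr3 stood at 34.7 ± 3.26 against 34.8 ± 1.70 CPM, with overlapping libraries.

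In GM-CSF cells at steady state the dish calls were few and unstable. Tlr1 was 1.30-fold higher on noTC, at 23.5 ± 0.339 against 17.96 ± 0.974 CPM (BH-adjusted p = 0.0036), and Tlr2 1.14-fold lower, at 178 ± 7.55 against 202 ± 2.87 CPM (BH-adjusted p = 0.016, edgeR). This was 1 of 8 in each direction, beside 4.69% higher and 2.85% lower of all genes. Without GM-noTC replicate 1, 0 members passed edgeR's test (BH-adjusted p = 0.051 for Tlr1 and 0.26 for Tlr2), and likewise in a fit to only the 4 libraries compared (0.066 and 0.23), while the full fit had 6 members at an unadjusted p under 0.05 and DESeq2 called 2. Without GM-TC replicate 1 there were 5 calls, with Tlr8, Tlr9 and Tlr13 added. The GM-TC replicates differed more from each other than those of any other group, with a chi-square over genes of 12.9 per degree of freedom against 1.93 to 5.27. The sum of Tlr1 and Tlr6 did not pass (log2 0.17 ± 0.07, BH-adjusted p = 0.14).

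The TC libraries at steady state were also the libraries with cardiac muscle transcripts, and their part in the dish differences was not tested. Genes under 1 CPM in those TC libraries and at 100 CPM or more elsewhere exceeded their TC level in the noTC libraries at steady state by a median of 0.675% (GM, 15 genes) and 0.600% (M, 19 genes) of their mean level in the other libraries. That share of the other libraries' level was subtracted from the noTC libraries at steady state. The 12 called differences between dishes, or in the dish effect on the LPS response, to which this was applied kept direction and call. Since it lowers noTC levels at steady state, it could weaken only the calls higher on noTC (Tlr1 in GM, Tlr13 in M). The rest could not be tested by it, and it does not bear on the cardiac muscle transcripts.

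Upon LPS challenge the dish differences in GM-CSF cells came down to Tlr9, which was 1.67-fold higher on noTC, at 30.1 ± 0.243 against 17.98 ± 0.0528 CPM (log2 0.74 ± 0.09, BH-adjusted p = 4.9e-05, edgeR). It kept its call when any of the 4 libraries was left out. Tlr13 also passed at 1.14-fold higher (BH-adjusted p = 0.047), a call lost without each of the 4 libraries in turn (BH-adjusted p between 0.075 and 0.45). This made 2 of 8 higher and 0 lower, beside 2.08% and 0.727% of all genes, with 3 higher and 0 lower at an unadjusted p under 0.05 and 2 and 0 by DESeq2. In M-CSF cells with LPS, Tlr1 was 1.25-fold lower on noTC (171 ± 3.20 against 214 ± 0.229 CPM, BH-adjusted p = 4.2e-04), Tlr6 1.19-fold lower (0.013), Tlr2 1.10-fold lower (0.027) and Tlr13 1.15-fold higher (0.012). That was 1 higher and 3 lower, beside 10.4% and 12.9% of all genes. Only Tlr1 kept its call under each left-out library. Tlr2 lost it without any 1 of the 4 libraries (BH-adjusted p between 0.068 and 0.13), Tlr6 without M-TC-LPS replicate 2 (0.082) or M-noTC-LPS replicate 1 (0.23), and Tlr13 without M-TC-LPS replicate 1 (0.18) or M-noTC-LPS replicate 1 (0.11). The sum of Tlr1 and Tlr6 was lower on noTC by 0.30 ± 0.06 on the log2 scale (BH-adjusted p = 4.8e-04).

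The LPS response differed between dishes for few receptors. In M-CSF cells the log2 response was larger on noTC than on TC for Tlr2 by 0.64 ± 0.07 (BH-adjusted p = 9.0e-07), for Tlr9 by 0.41 ± 0.11 (0.014) and for Tlr7 by 0.29 ± 0.09 (0.043) on the log2 scale (edgeR), or 3 of 8 beside 10.6% of all genes. Tlr2 was 1.72-fold lower on noTC at steady state and 1.10-fold lower upon LPS challenge, at 749 ± 4.80 against 826 ± 8.01 CPM. The calls of Tlr7 and Tlr9 were both lost without M-TC replicate 1, M-noTC replicate 1, M-TC-LPS replicate 1 or M-noTC-LPS replicate 2, which left 1 member (BH-adjusted p between 0.13 and 0.23 for Tlr7 and between 0.060 and 0.095 for Tlr9), and that of Tlr7 also without M-TC replicate 2 (0.099) or M-noTC replicate 2 (0.085). In GM-CSF cells 0 members passed edgeR's test, beside 0.783% of all genes, with 4 at an unadjusted p under 0.05 and 0 by DESeq2. Tlr9 there had an interaction of 0.50 ± 0.14 (BH-adjusted p = 0.13), which passed without GM-TC replicate 2.

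**Figure D5:**
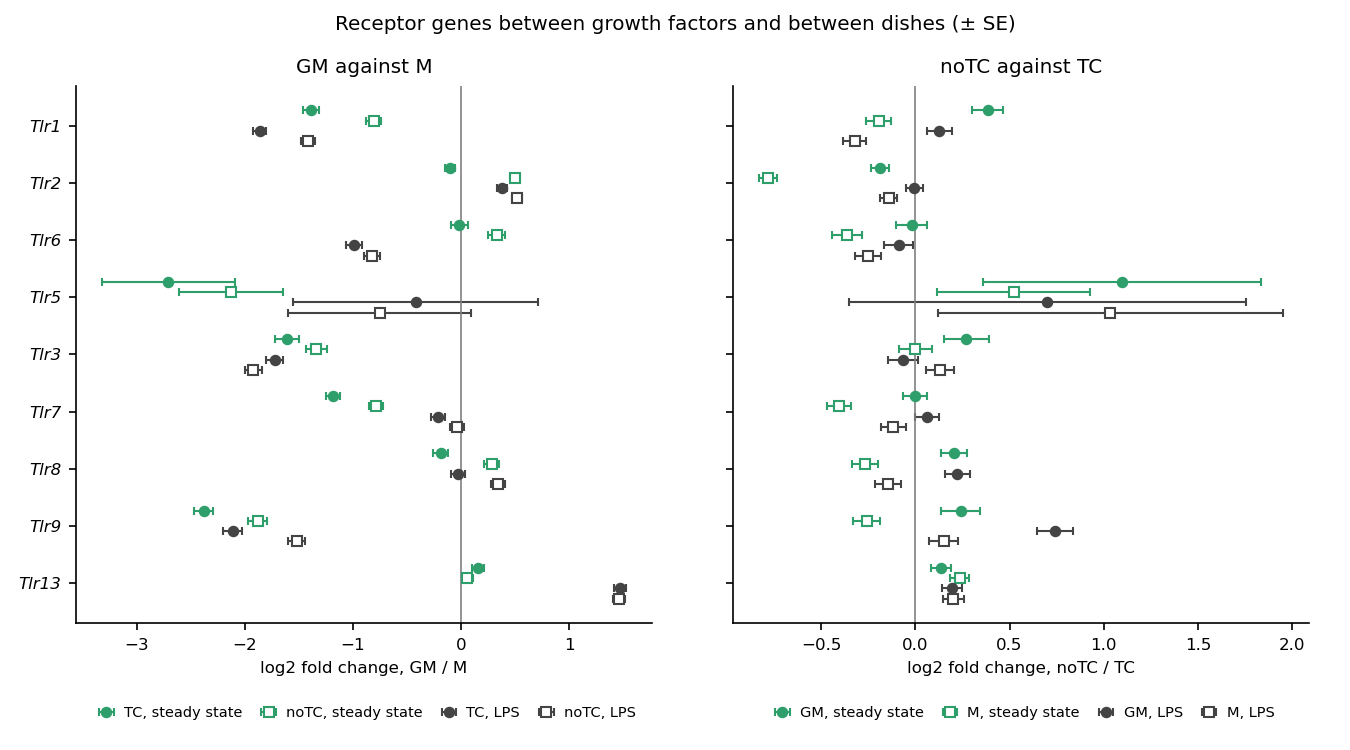
Log2 differences with SE for each receptor between growth factors (left, GM over M) and between dishes (right, noTC over TC), at steady state in green and upon LPS challenge in grey. Filled circles are TC dishes (left) or GM-CSF cells (right) and open squares are noTC dishes or M-CSF cells. Tlr1, Tlr3 and Tlr9 lie left of 0 in all 4 growth factor comparisons, and the wide bars belong to Tlr5, with 0 to 71 counts per library.

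The proteins that TLRs work with were listed by their textbook roles and read from the same fit, as counts and medians without a set test. Each value named as a rise or fall passed edgeR's test (BH-adjusted p under 0.05). List counts upon LPS challenge stand beside 32.8%, 33.6%, 37.6% and 36.4% of all genes tested that rose and 34.2%, 34%, 36.4% and 35.9% that fell in the 4 cultures, and list medians beside those of all genes, between -0.05 and -0.01. Of 8 co-receptors and ligand delivery proteins, 4, 5, 6 and 6 rose and 1 fell in each of the 4 cultures upon LPS challenge, with median log2 fold changes of 0.41, 0.31, 0.48 and 0.53. Cd14, which hands ligands to several TLRs, rose by 2.81, 2.69, 2.36 and 1.72 on the log2 scale, Ly96 (MD-2) by 0.81, 1.03, 0.87 and 0.76, and Cd180 by 0.67, 0.45, 0.59 and 0.69 (with library size only -0.06, -0.24 and -0.03 in the latter 3), whereas Hmgb1 fell by 0.49, 0.38, 0.23 and 0.18. With library size only, Ly96 stood at 0.33 and 0.53 in GM-TC and GM-noTC but at 0.04 in M-TC and in M-noTC. Of 17 genes of folding, trafficking and endosomal processing, 8, 10, 10 and 10 rose and 7, 4, 4 and 4 fell (medians 0.11, 0.17, 0.27 and 0.23), where all genes had 32.8% to 37.6% higher and 34% to 36.4% lower. Slc15a3, an endolysosomal peptide transporter, rose by 1.71, 1.59, 3.04 and 2.62, and the RNases Rnaset2a and Rnaset2b, near-identical copies whose reads may be divided, by 1.70 to 2.83. Cnpy3, a chaperone of TLRs, fell by 0.82, 0.89, 0.95 and 0.85, Slc15a4 by 0.80, 0.82, 0.63 and 0.56, and Slc29a3 by 0.39, 0.44, 0.87 and 0.52.

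Of 21 adaptors and proximal kinases, 13, 13, 14 and 15 rose and 5 fell in each culture (medians 0.45, 0.38, 0.58 and 0.47), beside the same 32.8% to 37.6% and 34% to 36.4% of all genes. Irf7, the interferon regulatory factor downstream of TLR7 and TLR9, rose by 5.93 and 5.22 in GM-TC and GM-noTC and by 3.58 and 2.98 in M-TC and M-noTC on the log2 scale. Irak2 rose by 1.62, 1.61, 3.13 and 2.89 and Ikbke by 1.99, 1.95, 2.09 and 2.02, while Tab1 (-0.44, -0.69, -1.92 and -1.73), Irak4 (-0.61, -0.51, -0.69 and -0.60) and Irak1 (-0.24, -0.19, -0.15 and -0.15) fell. Of 11 inhibitors of TLR signaling, 6, 6, 6 and 5 rose and 3, 3, 4 and 3 fell (medians 0.41, 0.40, 0.17 and 0.12), so that the falls lay near the 34% to 36.4% of all genes. Tnfaip3 (A20) rose by 4.85 to 5.89, and Socs1 by 3.53 and 3.59 in GM but 6.81 and 7.01 in M, while Sigirr fell by 1.28 to 1.70. Nod2, a sensor whose place among inhibitors is debatable, rose by 4.198 to 4.39. Of 8 cytosolic nucleic acid sensors and adaptors, 6 rose and 2 fell in each GM culture and 7 rose and 1 fell in each M culture, with a list median between 2.32 and 2.92. Ifih1 (MDA5) rose by 4.40 to 5.40, Ddx58 (RIG-I) by 2.58 to 3.42 and Zbp1 by 3.03 to 3.74, while Mavs, the adaptor of MDA5 and RIG-I, fell by 1.24 to 1.97.

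Between growth factors at steady state, the partner genes that stood apart included Irf7, which had 4.02 CPM in GM-TC against 73.7 in M-TC and 6.22 in GM-noTC against 97.1 CPM in M-noTC. Cd180 and Cd14 were also lower in GM than in M, by 1.84 and 1.36 on TC and 1.75 and 1.56 on noTC on the log2 scale. The lysosomal proteases Ctsk and Ctsl were higher in GM, by 3.74 and 1.95 on TC and by 2.69 and 1.49 on noTC, and Socs1 by 2.43 and 2.36. Of the 8 nucleic acid sensors, 3 were higher and 5 lower in GM at steady state on either dish, beside 32.6% and 28.9% of all genes on TC and 31.4% and 30.7% on noTC, with Ddx58 lower by 1.89 and 1.76 on the log2 scale (edgeR, each BH-adjusted p under 0.05). Between dishes, 6 of 65 partner genes were higher and 3 lower on noTC in GM-CSF cells at steady state, beside 4.69% and 2.85% of all genes, and upon LPS challenge 1 was higher and 0 lower, beside 2.08% and 0.727%. In M-CSF cells 13 were higher and 12 lower on noTC at steady state, beside 16.1% and 11.1% of all genes, and 10 were higher and 18 lower upon LPS challenge, beside 10.4% and 12.9%. In M-CSF cells at steady state Ctsl and Ctsk were higher on noTC, by 0.57 and 0.85, and Irak3, an inhibitory kinase of the IRAK family, was lower on noTC upon LPS challenge by 0.73 on the log2 scale (BH-adjusted p = 4.2e-08).

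The genes whose pattern over the 8 group means was most like that of each member were taken by Pearson's r of log2(mean CPM + 0.5) among 5132 genes with a mean of 5 CPM or more and a log2 range of at least 1. The points are 8 group means, 4 of them with LPS, from the 16 libraries, and r is given as a description. For Tlr3 these included Cited2 and Il15, and for Tlr1 Trim14, Arhgap17 and Bcl9, with r between 0.997 and 0.998. Tlr2 was followed most closely by Tent5a, Ptcd1 and Abhd17b (r 0.993 to 0.996), Tlr6 by Plaat3, Cnn3 and Stat3 (0.990 to 0.992), and Tlr13 by Cdc14b, Hs1bp3 and Zfp451 (0.987 to 0.997). For Tlr7 the genes were Sh3bp5, Irf9 and Rtp4 (0.973 to 0.991), for Tlr9 Ptpro, Frmd4b and Rps6ka5 (0.984 to 0.985), and for Tlr5 Terf1, Etv1 and Tubgcp6 (0.977 to 0.987). Tlr8, with the narrowest range, had Gm38394, Btbd7 and Tmsb4x at 0.917 to 0.958. Of the other family members in the matrix, Tlr4 had 221 and 104 CPM in GM-TC and GM-TC-LPS and 218 and 190.0 CPM in M-TC and M-TC-LPS. Tlr11 stayed at 1.65 CPM or below, and Tlr12 at 0.606 CPM or below.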

How the data were processed

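RNA from 16 cultures was sequenced from oligo(dT)-selected libraries, and the authors deposited RSEM expected counts per gene after alignment with HISAT. The submitters' processing notes also name fastp 0.18.0, Bowtie2 2.2.8 and StringTie 1.3.1, while the build of the genome and its gene models are not given in the sources used here. Groups came from the sample titles. With 2 libraries per group, the spread behind each p-value was estimated for each gene over all 8 groups in 1 fit. A group with looser replicates, such as GM-TC, was thus tested with a spread it shares with the others. Expected counts were rounded, and edgeR 4.0.16 (R 4.3.3) fitted a quasi-likelihood model to all 8 groups after TMM scaling and filterByExpr (12514 genes), with calls at a Benjamini-Hochberg (BH) adjusted p under 0.05 over those genes. The biological coefficient of variation was 4.75%. The script was tested on simulated counts. DESeq2 1.42.0, other scalings, no filter, each library left out and a fold threshold were tried as alternatives. The members, partner lists and marker lists were chosen with earlier results of these data known. The named partner genes were those with the largest called changes per list and direction, up to 3 for LPS and up to 2 for growth factor and dish. Of the genes most like Tlr3 in pattern, 1 is not reported here.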

Additional observations from a re-analysis of the deposited data

Results flagged for a closer look

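The LPS response differed between growth factors or dishes, by the interaction term of edgeR's fit (BH-adjusted p under 0.05), for the following members. Values are differences of log2 LPS responses ± SE. For GM minus M on TC dishes, Tlr13 stood at 1.311 ± 0.08 (BH-adjusted p = 5.5e-12), Tlr7 at 0.9733 ± 0.09 (1.4e-08), Tlr2 at 0.4766 ± 0.07 (3.6e-06), Tlr1 at -0.4775 ± 0.10 (5.0e-04) and Tlr6 at -0.9713 ± 0.11 (2.4e-07). On noTC dishes, Tlr13 stood at 1.404 ± 0.07 (2.0e-12), Tlr7 at 0.7478 ± 0.09 (7.8e-07), Tlr9 at 0.3595 ± 0.12 (0.021), Tlr3 at -0.5824 ± 0.13 (0.0010), Tlr1 at -0.6058 ± 0.10 (2.4e-05) and Tlr6 at -1.155 ± 0.11 (1.8e-08).

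For noTC minus TC in M-CSF cells, Tlr2 stood at 0.6403 ± 0.07 (BH-adjusted p = 9.0e-07), Tlr9 at 0.4093 ± 0.11 (0.014) and Tlr7 at 0.289 ± 0.09 (0.043). Each culture has 2 libraries per treatment, so no sample could be tested as an outlier within its group.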

How the results depend on the processing

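When called single-member values, Tlr5 left out, were set against every alternative, 907 kept direction and call, 108 kept direction alone and 12 turned. With library size only, the LPS response of Tlr8 was -0.106, -0.1138, -0.6098 and -0.389 in the 4 cultures (GM on TC, GM on noTC, M on TC, M on noTC), that of Tlr9 -0.0767 in GM-TC and -0.1813 in M-noTC, that of Tlr7 -0.5345 in M-TC, then -0.1445 in M-noTC, and that of Tlr6 -0.001528 in GM-noTC. The difference of GM and M at steady state was then -0.1549 for Tlr13 on TC and -0.006451 for Tlr8 on noTC. That scaling moved the median of all genes, as given in the report. With Tlr1 and Tlr6 summed, an alternative chosen after seeing the data, Tlr6 on noTC at steady state was -0.3401.

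A threshold of more than 2-fold with an unadjusted p under 0.05 left 4 members in the LPS response of GM-TC and 4 of GM-noTC, 0 in each of the 4 dish comparisons, 3 between growth factors on noTC at steady state (2 without Tlr5), 4 on TC and 4 on noTC upon LPS challenge, 1 and 2 for growth factor by LPS on TC and noTC, and 0 for dish by LPS in M. It asks for a larger change by construction. A fit to only the libraries compared left 0 in the GM dish comparison at steady state, library size only and the replicate block each left 1 in that with LPS (Tlr13 lost), and no filter gave 1 for dish by LPS in GM (Tlr9 gained). The cause of these was not tested.

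Leaving out each library in turn gave 0 to 5 members for the GM dish comparison at steady state, 1 to 1 for GM with LPS, 1 to 3 for M with LPS, 0 to 1 for dish by LPS in GM and 1 to 3 in M. Libraries with the same replicate number did not deviate together (r between -0.0636 and 0.0200 over 12 comparisons), so the numbers were not taken to pair them, and the replicate block kept 84 of the 85 called values. DESeq2 also kept 84. Tlr5, with 0 to 71 counts per library, is limited by depth.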
